A study of Homo sapiens with 9 samples.

Results

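The genes of viral RNA sensing and IRF activation were followed in HCT116 cells: the sensors DDX58, IFIH1, DHX58 and TLR3, the adaptors TICAM1 and MAVS, the kinase TBK1, and the transcription factors IRF1, IRF3 and IRF7. They were picked by gene name with earlier results of these data known, and make up 10 of the 33861 genes of the deposited table. HCT116 is an established human colorectal carcinoma line. Its cells were sequenced in 3 groups of 3 libraries after depletion of ribosomal RNA. NC cells were the control and carry no factor in their labels, Activin cells received activin A at 100 ng/mL for 5 days, and Activin+HGF cells received the same activin treatment followed by hepatocyte growth factor (HGF) at 20 ng/mL for 5 days. HGF and the additional days of culture cannot be told apart in the Activin+HGF group, and the sources used here do not state how long NC cells were cultured, whether activin was kept during HGF, or whether the libraries of a group came from separate cultures. The p-values therefore measure the spread between these libraries, which may be technical.

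Cells recognize viral RNA by receptors in the cytosol and in endosomes. RIG-I (encoded by DDX58) and MDA5 (IFIH1) bind double-stranded RNA in the cytosol and signal through the mitochondrial adaptor MAVS, whereas TLR3 senses it in endosomes and signals through TRIF (TICAM1). Both routes reach the kinase TBK1, which phosphorylates IRF3 and IRF7, and these factors then switch on type I and type III interferon genes. DDX58, IFIH1, DHX58, IRF1 and IRF7 are themselves known to respond to interferon, in immune cells as in epithelia. RNA levels do not report phosphorylation, so the activity of TBK1, IRF3 and IRF7 was not measured in these libraries.

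Counts on genes summed to 57453977 to 77016167 per library. The libraries Activin replicate 2 and Activin+HGF replicate 1 stood apart from the others of their group, with correlations of log2 CPM of 0.970 to 0.971 and 0.969 to 0.973, against 0.984 to 0.988 for the remaining replicate pairs. Markers of an epithelial line were present: 6 of 7 reached 1 FPKM, summing to 555 to 875 FPKM, and VIL1 stayed at 0.03 FPKM or below. Among 9 leukocyte markers only CD68, which many cell types express, reached 1 FPKM, and PTPRC, which defines leukocytes, stayed at 0.02 FPKM or below. The summed leukocyte markers were 0.98 to 1.91 FPKM in NC, 5.32 to 9.43 FPKM in Activin and 6.23 to 8.13 FPKM in Activin+HGF. None of the plasmacytoid dendritic cell markers of the table, which would mark the professional IRF7-expressing interferon producers, passed 0.19 FPKM when summed. Of 6 fibroblast markers only COL1A1 reached 1 FPKM, and their sum was 2.66 to 2.82 FPKM in NC, up to 6.05 FPKM in Activin and 2.88 to 3.65 FPKM in Activin+HGF. The part of these markers in the results was not tested. As in any bulk library, fewer expressing cells and less RNA per cell cannot be told apart.

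The 10 genes followed 4 courses. DDX58, IFIH1 and IRF1 rose with activin and were back down after HGF. DHX58 and IRF7 rose with activin and were still above NC after HGF. TLR3 was low throughout and fell after HGF. TICAM1, MAVS, TBK1 and IRF3 passed the call in no comparison. None of the 10 genes was lost to the filter on low counts. A gene was called when its Benjamini-Hochberg adjusted p in edgeR's quasi-likelihood test was under 0.05 over all 20988 tested genes and its absolute log2 fold change was at least 1. Of the 10 genes, 5 were called higher and 0 lower in Activin against NC, where 11.4% of all tested genes were called, 6.78% higher and 4.62% lower. In Activin+HGF against Activin, 0 were higher and 4 lower, against 8.09% of all tested genes called, 3.87% higher and 4.21% lower. In Activin+HGF against NC, 2 were higher and 1 lower, against 21.5% called, 11.3% higher and 10.2% lower. The CPM of the groups did not overlap for 8, 5 and 7 of the 10 genes, beside 42.2%, 32.7% and 53.8% of all tested genes. The median log2 fold change of the 10 genes was 1.04, -0.43 and 0.11 in these comparisons, beside 0.02, -0.04 and -0.03 over all tested genes. At an unadjusted p under 0.05, 1 gene was lower with activin (TBK1) and 1 higher after HGF (IRF3), where the counts above are 0, and DESeq2 and limma also gave 0 there. The comparisons share libraries and are not independent.

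**Figure D1:**
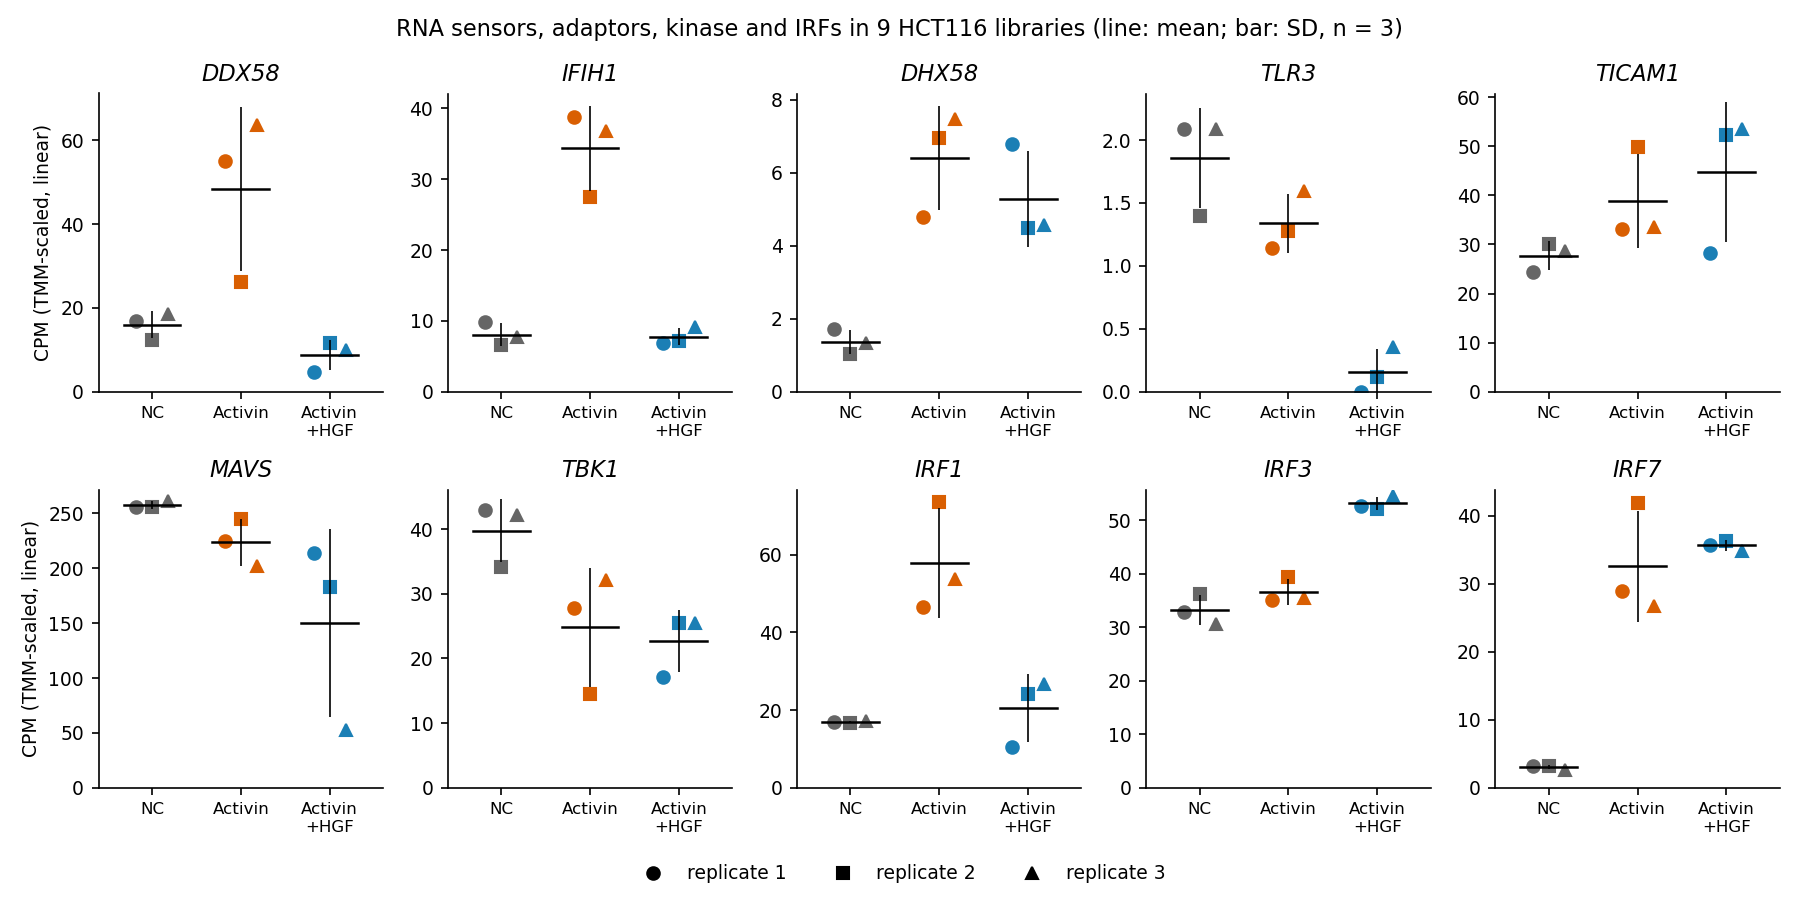
CPM of the 10 genes (linear axes from 0, scaled by TMM) in each of the 9 libraries, with a marker shape for each replicate number, a line at the group mean and a bar for its SD (n = 3). DDX58, IFIH1 and IRF1 were high in Activin alone, IRF7 and DHX58 stayed high in Activin+HGF, and Activin replicate 2 was the lowest of its group for DDX58 (26.3 CPM) and TBK1 (14.4 CPM).

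IFIH1, the gene of the cytosolic sensor MDA5 (chr2:162267074-162318684, minus strand, GRCh38), rose and returned to its starting level. Its level was 9.78, 6.63 and 7.70 CPM in NC replicates 1 to 3, 38.8, 27.4 and 36.8 CPM in Activin, and 6.94, 7.18 and 9.13 CPM in Activin+HGF. All 3 Activin libraries lay above all others, and the NC and Activin+HGF libraries were interleaved. This gave a log2 fold change of 2.10 (SE 0.23, adjusted p = 0.000315) in Activin against NC and -2.15 (SE 0.23, adjusted p = 0.00177) in Activin+HGF against Activin. Between Activin+HGF and NC it was -0.05 with a 95% interval of -0.55 to 0.45.

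DDX58, the gene of RIG-I, which recognizes short RNAs with 5′ triphosphates (chr9:32455302-32526208, minus strand), followed the same course with more spread. It stood at 16.9, 12.5 and 18.7 CPM in NC, at 55.1, 26.3 and 63.7 CPM in Activin, and at 4.74, 11.6 and 9.88 CPM in Activin+HGF. Activin replicate 2 was the lowest Activin library and Activin+HGF replicate 1 the lowest of all, the libraries that also stood apart over all genes, and none of the groups overlapped. DDX58 changed by a log2 fold change of 1.60 (SE 0.38, adjusted p = 0.0169) with activin and -2.47 (SE 0.40, adjusted p = 0.0067) after HGF. Activin+HGF libraries lay below NC libraries by a log2 fold change of -0.87 (SE 0.38), which was not called (adjusted p = 0.106). The call with activin was lost when NC replicate 1, NC replicate 2, Activin replicate 1 or Activin replicate 3 was left out (adjusted p = 0.0551, 0.0683, 0.0530 and 0.0563, log2 fold change 1.40 to 1.69), and in limma on log2(FPKM + 0.1) without a filter (1.57, adjusted p = 0.0717). Without both libraries that stood apart, DDX58 was called in both comparisons.

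The promoters of IFIH1 and DDX58 are shown as a description. The 250 bases before the RefSeq transcription start (GRCh38.p14) were available for 7 of the 10 genes and were searched on both strands for the core of the interferon-stimulated response element, GAAA followed by any 2 bases and again GAAA, which IRFs are known to bind, for the same blocks with 1 base between them, GAAANGAAA, and for the core of the gamma-activated sequence, TTCNNNGAA. These occur in 3.07%, 2.76% and 6.78% of 27305 promoters of the same length. DHX58, IRF3 and IRF7 had no promoter entry. IFIH1 held the response element core 3 times, in an overlapping pair on the opposite strand starting 159 and 153 bases before the start and once 21 bases before it. DDX58 held GAAACGAAA once, 203 bases before the start, and no response element core. Its promoter and the motifs GAAANGAAA and TTCNNNGAA were added after the values were seen. A match says only that these letters are present, and capitals mark the matches.
IFIH1 (chr2:162318685-162318934, minus strand): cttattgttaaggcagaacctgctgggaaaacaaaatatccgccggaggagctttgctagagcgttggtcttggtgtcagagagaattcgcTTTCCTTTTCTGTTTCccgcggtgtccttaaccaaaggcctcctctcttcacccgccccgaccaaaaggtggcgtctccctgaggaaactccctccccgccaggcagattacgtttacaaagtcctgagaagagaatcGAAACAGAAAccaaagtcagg
DDX58 (chr9:32526197-32526446, minus strand): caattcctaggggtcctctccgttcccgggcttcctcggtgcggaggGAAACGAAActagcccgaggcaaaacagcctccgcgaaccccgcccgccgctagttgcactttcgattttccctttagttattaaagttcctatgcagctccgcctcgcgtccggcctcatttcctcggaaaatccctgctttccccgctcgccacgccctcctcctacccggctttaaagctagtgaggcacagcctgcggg

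DHX58 encodes LGP2, the RIG-I-like receptor that lacks the signaling domain and modulates the other two (chr17:42101404-42112714, minus strand). It was scarce in NC, at 1.71, 1.04 and 1.33 CPM, and reached 4.80, 6.96 and 7.48 CPM in Activin. After HGF it stayed at 6.79, 4.49 and 4.57 CPM. Every treated library lay above every NC library, while the Activin and Activin+HGF libraries overlapped in CPM. On the FPKM scale they did not overlap, at 1.25 to 1.93 FPKM in Activin and 0.90 to 1.16 FPKM in Activin+HGF. Against NC, the log2 fold change of DHX58 was 2.24 (SE 0.32, adjusted p = 0.00117) in Activin and 1.96 (SE 0.31, adjusted p = 0.00129) in Activin+HGF. Both calls were lost on log2(FPKM + 1), where limma gave 0.96 (adjusted p = 0.00081) and 0.60 (adjusted p = 0.0064), under the 2-fold limit. Between Activin+HGF and Activin it was -0.28 (adjusted p = 0.575), with a 95% interval of -0.94 to 0.38. Under the alternatives this value ranged from -0.64 to -0.18 and was never called.

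The makeup of the RIG-I-like receptor transcripts is given on the length-corrected FPKM scale, as a description without a test. Summed over DDX58, IFIH1 and DHX58, the level was 3.73 to 5.52 FPKM in NC, 11.0 to 22.7 FPKM in Activin and 2.72 to 3.94 FPKM in Activin+HGF. DDX58 gave the largest share in every NC library, from 60.7% to 68.4%, and in every Activin library, from 44.1% to 60.0%. In Activin+HGF its share was the largest in replicates 2 and 3 (49.2% and 41.8%) but not in replicate 1 (24.6%). DHX58 gave 5.89% to 7.43% in NC, 5.99% to 14.1% in Activin and 23.1% to 42.6% in Activin+HGF. The summed ranges of NC and Activin+HGF overlapped, whereas the DHX58 shares of Activin+HGF lay above all others. The highest share, 42.6%, was that of Activin+HGF replicate 1, and the other Activin+HGF libraries gave 23.1% and 23.2%.

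**Figure D2:**
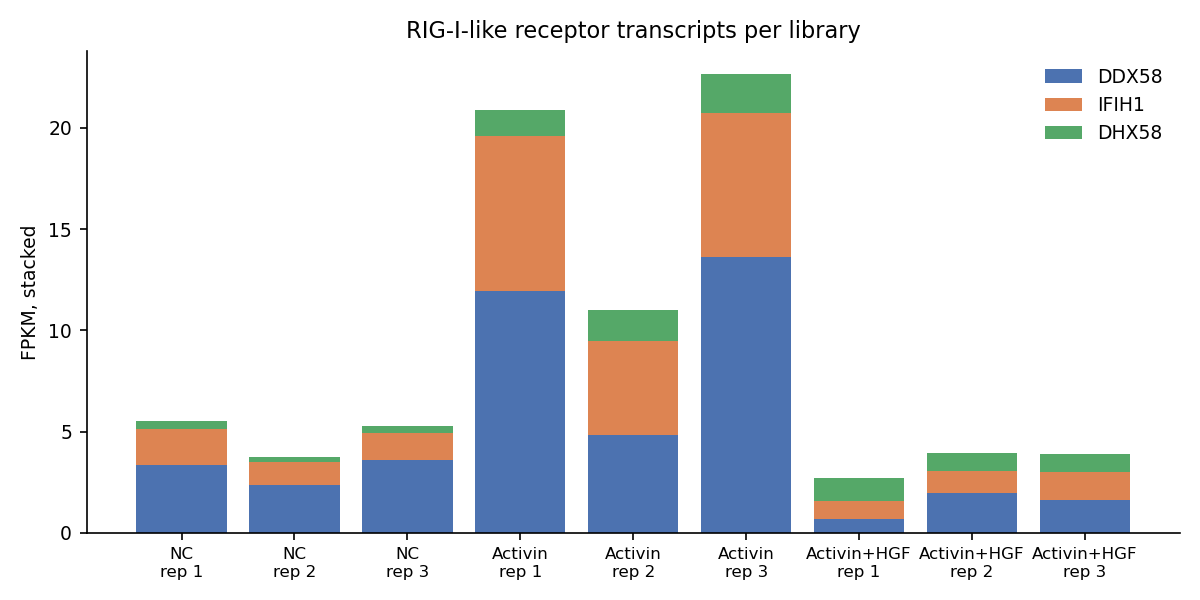
FPKM of the RIG-I-like receptor genes, stacked for each of the 9 libraries (linear axis from 0). The 3 Activin libraries reached 11.0 to 22.7 FPKM, and DHX58 made up 23.1% to 42.6% of the lower stacks of Activin+HGF.

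TLR3, the endosomal sensor (chr4:186069155-186088073, plus strand), did not rise with activin. It held 128, 94 and 168 counts in NC, 84, 80 and 120 in Activin, and 0, 8 and 23 in Activin+HGF, which is 2.09, 1.40 and 2.09 CPM, 1.14, 1.28 and 1.60 CPM, and 0, 0.116 and 0.359 CPM. NC and Activin overlapped, and every Activin+HGF library lay below all others. The log2 fold change in Activin against NC was -0.47 (SE 0.75, adjusted p = 0.733). It was -3.05 (SE 0.84, adjusted p = 0.0407) in Activin+HGF against Activin and -3.52 (SE 0.86, adjusted p = 0.0111) in Activin+HGF against NC. These sizes rest on few counts. In the deposited table, multiples of 4 made up 35.0% of the counts from 1 to 40, where an even spread would give 25%, and what a single count stands for is therefore uncertain. The fall from Activin was no longer called when any NC or Activin library or Activin+HGF replicate 2 was left out (adjusted p = 0.0531 to 0.110). Its call was also lost in edgeR with only the 2 groups compared in the fit (adjusted p = 0.111). The fall from Activin was called without both libraries that stood apart. The fall from NC was called in each of these cases.

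The TLR3 promoter, added after the values were seen, is shown as that of the endosomal sensor. It held TTCNNNGAA 178 and 50 bases before the start, and the response element core on the opposite strand as TTTCACTTTC, which begins 4 bases before the start and runs across it (chr4:186069152-186069161).
TLR3 (chr4:186068906-186069155, plus strand): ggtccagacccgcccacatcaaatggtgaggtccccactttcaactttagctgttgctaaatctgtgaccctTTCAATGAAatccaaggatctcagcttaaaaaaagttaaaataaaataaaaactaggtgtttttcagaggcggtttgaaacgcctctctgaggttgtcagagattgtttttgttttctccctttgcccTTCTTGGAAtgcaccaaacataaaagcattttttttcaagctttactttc

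The adaptors and the kinase passed no call. TICAM1, which encodes the TLR3 adaptor TRIF (chr19:4815932-4831712, minus strand), ranged from 24.4 to 30.1 CPM in NC, 33.3 to 49.9 CPM in Activin and 28.3 to 53.6 CPM in Activin+HGF. Its log2 fold change was 0.49 (SE 0.27, adjusted p = 0.243) with activin and 0.69 (SE 0.27, adjusted p = 0.0714) in Activin+HGF against NC. The Activin libraries lay above the NC libraries, and the Activin+HGF range covered part of both. Without Activin replicate 2, which stood apart over all genes, the value with activin was 0.27 (adjusted p = 0.55). Activin+HGF replicate 1, which also stood apart, was the lowest of its group at 28.3 CPM, beside 52.4 and 53.6 CPM. Under the alternatives, Activin+HGF against NC ranged from 0.32 to 0.94, with adjusted p down to 0.000615. Activin+HGF against Activin ranged from -0.20 to 0.67, with adjusted p down to 0.00839. All these values were short of the 2-fold limit.

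MAVS, on which RIG-I and MDA5 depend (chr20:3846799-3876123, plus strand), was even in NC at 256, 256 and 261 CPM. It was 225, 245 and 202 CPM in Activin and 214, 183 and 52.6 CPM in Activin+HGF. The spread after HGF came from Activin+HGF replicate 3, which held 3374 counts where replicates 1 and 2 held 11669 and 12574. This library was not one of those that stood apart over all genes. The log2 fold change in Activin+HGF against NC was -0.78 (SE 0.39, adjusted p = 0.153) and -0.38 without replicate 3, while Activin against NC gave -0.20 (SE 0.39, adjusted p = 0.78).

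TBK1, the kinase of IRF3 and IRF7 (chr12:64452092-64502086, plus strand), went from 34.2 to 42.9 CPM in NC to 14.4 to 32.2 CPM in Activin and 17.1 to 25.5 CPM in Activin+HGF. Both treated groups lay below NC without overlap, by log2 fold changes of -0.68 (SE 0.29, adjusted p = 0.135) and -0.81 (SE 0.29, adjusted p = 0.0554), neither of them called. Without Activin replicate 2, the lowest Activin library, the first was -0.41 (adjusted p = 0.231). The Activin+HGF and Activin ranges overlapped, with a log2 fold change of -0.13 (SE 0.29, adjusted p = 0.805). The 250 bases before the starts of TICAM1, MAVS and TBK1 held none of the searched letters.

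IRF7, which amplifies interferon production once it is made (chr11:612553-615983, minus strand), was called higher than NC in both treated groups. It stood at 3.18, 3.26 and 2.66 CPM in NC, at 29.0, 41.9 and 26.8 CPM in Activin, and at 35.8, 36.4 and 34.8 CPM in Activin+HGF. All treated libraries were far above NC, and the Activin+HGF values fell within the Activin range. Against NC, IRF7 had a log2 fold change of 3.42 (SE 0.22, adjusted p = 1.59e-05) in Activin and 3.56 (SE 0.23, adjusted p = 1.15e-05) in Activin+HGF, about 10.7-fold and 11.8-fold. Between the treated groups it was 0.13 with a 95% interval of -0.32 to 0.58 (adjusted p = 0.709), and its sign turned to -0.19 when library totals were used without TMM scaling.

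IRF3, the constitutive partner of IRF7 (chr19:49659569-49665875, minus strand), moved little. It measured 32.8, 36.2 and 30.6 CPM in NC, 35.0, 39.4 and 35.4 CPM in Activin, and 52.7, 52.1 and 54.5 CPM in Activin+HGF. NC and Activin overlapped, and Activin+HGF lay above both. The log2 fold change was 0.14 (SE 0.15, adjusted p = 0.591) with activin, 0.54 (SE 0.15, adjusted p = 0.0432) after HGF and 0.68 (SE 0.15, adjusted p = 0.00754) in Activin+HGF against NC, the last pair past the threshold on p but short of the 2-fold limit. The rise after HGF was 0.16 on the FPKM scale (limma, log2(FPKM + 0.1), adjusted p = 0.421), and in edgeR its adjusted p was above 0.05 with library totals (0.402), with the replicate block (0.0659), and when any library but Activin replicate 2 was left out (0.0606 to 0.177). IRF3 shares 734 bases with BCL2L12 on the opposite strand, whose counts came to 59.0% of those of IRF3 and which moved by log2 fold changes of 0.66 after HGF (adjusted p = 0.12) and 0.65 in Activin+HGF against NC (adjusted p = 0.083). Whether counting used strand is not given in the sources used here, and the part of BCL2L12 reads in the IRF3 values was not tested.

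The balance of the factors shifted with activin. The FPKM ratio of IRF7 to IRF3 was 0.124 to 0.139 in NC, 1.10 to 1.55 in Activin and 0.928 to 1.01 in Activin+HGF. IRF3 transcripts thus exceeded IRF7 transcripts in every NC library, and IRF7 transcripts exceeded IRF3 transcripts in every Activin library.

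IRF1, an interferon-inducible activator of antiviral genes and founder of the IRF family (chr5:132481609-132490773, minus strand), behaved as DDX58 and IFIH1 did. It was even in NC at 17.0, 16.6 and 17.2 CPM, rose to 46.4, 73.7 and 53.7 CPM in Activin, and was 10.4, 24.1 and 26.8 CPM in Activin+HGF. The Activin libraries lay above all others, and the Activin+HGF libraries lay on both sides of NC. IRF1 had log2 fold changes of 1.77 (SE 0.32, adjusted p = 0.00446) with activin, -1.50 (SE 0.32, adjusted p = 0.0163) after HGF and 0.27 (SE 0.31, adjusted p = 0.551) in Activin+HGF against NC. Without both libraries that stood apart, the fall after HGF was -0.97 with an adjusted p of 0.00207, just short of the 2-fold limit, and with only the 2 groups compared in the fit it was -1.54 with an adjusted p of 0.0519. The antisense gene IRF1-AS1 shares 7094 bases with IRF1 and held 4.23% of its counts.

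The IRF1 promoter, also added after the values were seen, is shown as a description. It held TTCCCCGAA, a match to TTCNNNGAA, 124 bases before the start, and neither form of the interferon-stimulated response element core.
IRF1 (chr5:132490774-132491023, minus strand): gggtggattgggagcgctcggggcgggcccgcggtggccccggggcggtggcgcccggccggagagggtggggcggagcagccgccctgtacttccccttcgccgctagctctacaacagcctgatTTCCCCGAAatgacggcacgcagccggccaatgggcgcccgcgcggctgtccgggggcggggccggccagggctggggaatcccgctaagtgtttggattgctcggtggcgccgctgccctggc

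**Figure D3:**
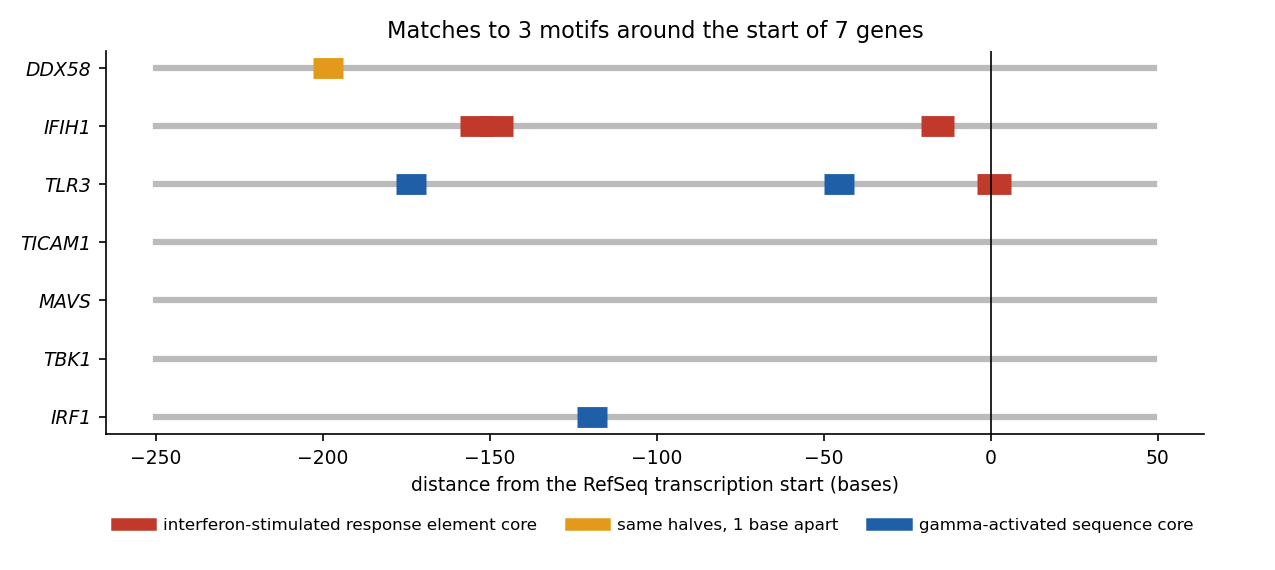
Position of the matches to the 3 motifs from 250 bases before to 50 bases after the RefSeq start of the 7 genes with a promoter entry (axis: distance from the start in bases). IFIH1 held matches 159, 153 and 21 bases before the start, and TICAM1, MAVS and TBK1 held none.

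**Figure D4:**
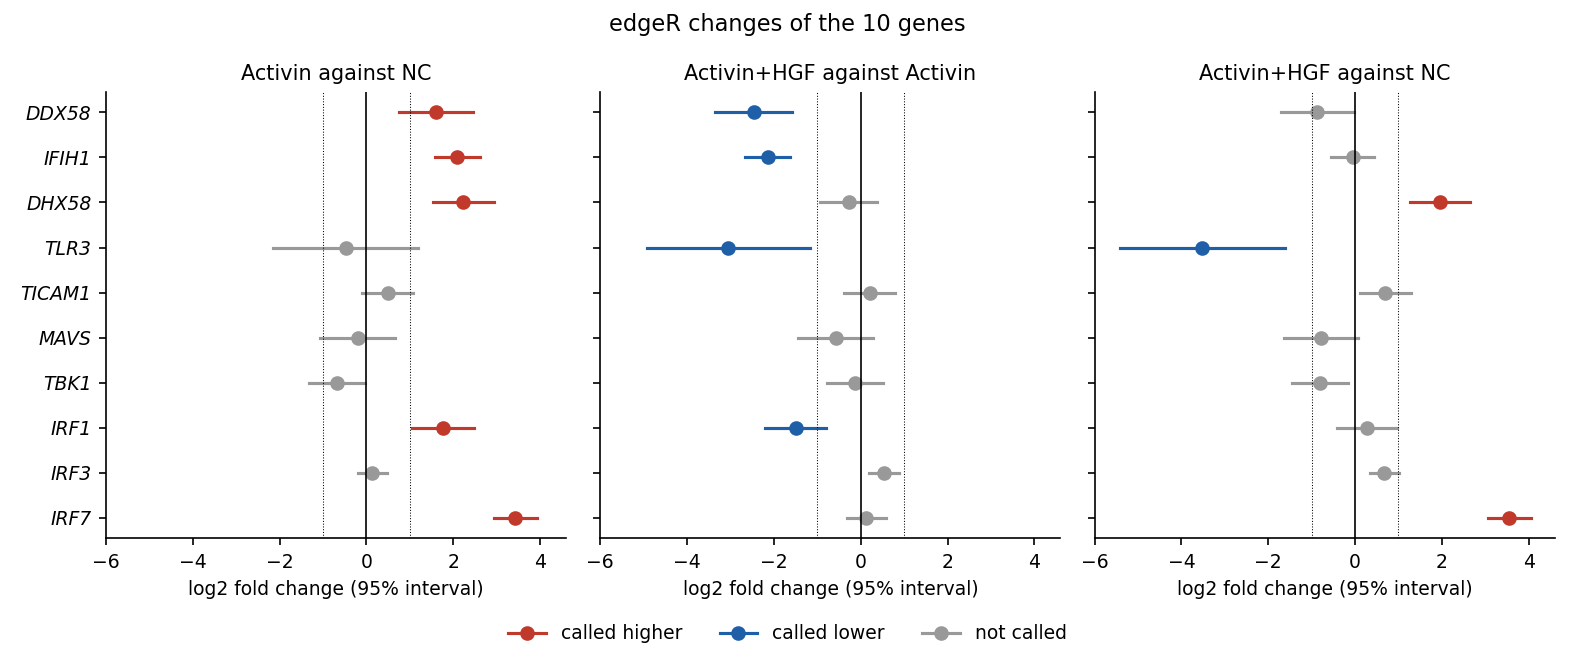
edgeR log2 fold change (linear axis in log2 units) of each of the 10 genes in each comparison, with its 95% interval and with colour for the call, dotted lines marking a 2-fold change. IFIH1 had -0.05 in Activin+HGF against NC, IRF7 had 3.42 and 3.56 against NC in the treated groups, and TLR3 had the widest intervals.

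Across groups the order of the genes by FPKM changed. In NC it ran from MAVS (19.7 FPKM ± 0.489, SD, n = 3) over TICAM1 (9.25 ± 0.775), IRF3 (7.82 ± 0.586), TBK1 (5.59 ± 0.794), DDX58 (3.10 ± 0.656), IRF1 (1.95 ± 0.0737), IFIH1 (1.42 ± 0.315) and IRF7 (1.02 ± 0.112) to DHX58 (0.317 ± 0.0902) and TLR3 (0.247 ± 0.0577). Only the ranges of DHX58 and TLR3 overlapped between neighbours. In Activin, IRF7 moved up to 11.6 FPKM ± 1.85, behind MAVS (17.0 to 19.2 FPKM) and TICAM1 (13.6 ± 2.01), with the ranges of TICAM1 and IRF7 overlapping. In Activin+HGF, TICAM1 (12.4 ± 4.79), IRF3 (10.2 ± 0.983), IRF7 (9.96 ± 0.953) and MAVS (9.14 ± 4.98) led with overlapping ranges between neighbours, and all the others stayed below 4 FPKM. TLR3 was the lowest of the 10 genes in each group.

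Over the 9 libraries, IFIH1 correlated with DDX58 at r = 0.886 and with IRF1 at r = 0.880, IRF7 with DHX58 at r = 0.944, and TLR3 with IRF3 at r = -0.947 (Pearson, log2(CPM + 0.5)). These are descriptions over libraries that fall into 3 groups. Among 12082 genes with a mean of at least 1 FPKM, the genes most like IFIH1 were the interferon-induced chemokine CXCL10 (r = 0.984), IFIT2 (r = 0.979) and the type III interferon IFNL2 (r = 0.974). CXCL10 and IFNL2 passed the filter on low counts only through the Activin libraries. Their r therefore mainly restates that Activin lay above the other groups. Those most like IRF7 were the intermediate filament gene PRPH, the epidermal growth factor family ligand AREG and the NF-kB subunit RELB, each at r = 0.997 or 0.998, and 315 genes passed 0.95. For DDX58 they were AC110079, BTC and AC078820 (r of at least 0.966), for IRF1 ZNF213, FBXO42 and GRB10 (r = 0.973 to 0.992), and for DHX58 TMEM225B, SH3D21 and RAET1L (r = 0.978 to 0.985). TLR3 was followed most closely by HMMR, ZBED2 and FAM216A (r = 0.978 to 0.983) and IRF3 by MAOB and TMEM251 (r = 0.989 and 0.987). For TICAM1 they were RINL, GPR157 and NAGS (r = 0.985 to 0.988), and for TBK1 CUL2, SMC6 and ATE1 (r = 0.987 to 0.991). MAVS had 0 genes above 0.95, with SLX1B-SULT1A4, CDH24 and UNC13B at r = 0.931 to 0.948.

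Around the 10 genes stand the products that IRFs are known to switch on. All 8 on the list were tested, and each was called higher with activin and lower after HGF. Of all tested genes, 6.78% were called higher with activin and 4.21% lower after HGF. The fit with no filter on low counts, which uses the same values of these genes, made the same calls. On log2(FPKM + 1), limma called 7 in each. Of the 8, 7 passed the filter on low counts only through the Activin libraries, so that the tally is given as a description. ISG15, a ubiquitin-like modifier that acts on RIG-I and MDA5, went from 38.9, 44.1 and 36.5 CPM in NC to 465, 778 and 554 CPM in Activin and 211, 150 and 150 CPM in Activin+HGF. It was still called higher than NC after HGF (log2 fold change 2.10, SE 0.23, adjusted p = 0.000159). The type III interferon genes IFNL1, IFNL2 and IFNL3 held 0 counts in every NC library and 942 to 1363 counts in each Activin library, which puts them at least 303-fold, 319-fold and 345-fold higher against a floor of 3 counts. IFNL2 and IFNL3 are near-identical copies, so the split of reads between them is uncertain. After HGF, IFNL2 was at least 283-fold lower than in Activin, with 0 counts in each library. In Activin+HGF, IRF7 averaged 35.7 CPM and IRF3 53.1 CPM. With the Activin libraries out of the fit, ISG15 was the 1 target that passed the filter, so that the others could not be compared between Activin+HGF and NC.

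The other genes that bind or act on double-stranded RNA, among them blockers of translation and activators of RNA decay, gave 5 higher and 0 lower of 12 tested with activin, 0 and 6 after HGF, and 1 and 6 in Activin+HGF against NC, where limma on log2(FPKM + 1) called 1 and 3. Over all tested genes, 6.78%, 3.87% and 11.3% were called higher and 4.62%, 4.21% and 10.2% lower in these comparisons. IFIT1, which holds back RNAs with foreign 5′ ends, went from 9.44 to 11.3 CPM in NC to 89.2 to 112 CPM in Activin and 3.55 to 4.01 CPM in Activin+HGF. It fell below its NC level (log2 fold change -1.40, SE 0.17, adjusted p = 0.000301), as did IFIT2 (-1.20, SE 0.28, adjusted p = 0.00853) and IFIT3 (-3.06, SE 0.41, adjusted p = 0.000508). On log2(FPKM + 1) these calls were lost, with -0.89, -0.44 (adjusted p = 0.171 for IFIT2) and -0.73 in limma. OASL, which is known to enhance RIG-I signaling, stayed above NC instead (2.02, SE 0.32, adjusted p = 0.00112). The median log2 fold change of this list was 0.58, -1.46 and -0.89 in the 3 comparisons, beside 0.02, -0.04 and -0.03 over all tested genes.

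Of the partners and regulators of RIG-I, MDA5 and MAVS, 27 were tested, with 4 higher and 0 lower in Activin against NC, 0 and 5 in Activin+HGF against Activin, and 3 and 3 in Activin+HGF against NC. These are 14.8%, 18.5% and 22.2% of the list, beside 11.4%, 8.09% and 21.5% of all tested genes. The 3 and 3 became 1 and 6 with library totals, 1 and 8 in limma on log2(FPKM + 0.1), 0 and 4 on log2(FPKM + 1) and 1 and 3 without NC replicate 1. The 5 lower became 2 when Activin replicate 1, Activin replicate 3 or Activin+HGF replicate 3 was left out and when only the 2 groups compared were fitted. TRIM25, the ubiquitin ligase that activates RIG-I, rose from 163 to 184 CPM in NC to 442 to 511 CPM in Activin (log2 fold change 1.45, SE 0.16, adjusted p = 0.000341) and was 321 to 426 CPM in Activin+HGF. TNFAIP3, the deubiquitinase A20 that restrains the pathway, went from 3.24 to 4.75 CPM to 14.4 to 16.5 CPM (2.03, SE 0.39, adjusted p = 0.00586) and OPTN, an adaptor that binds TBK1, from 34.8 to 35.1 CPM to 68.1 to 75.6 CPM (1.01, SE 0.17, adjusted p = 0.00333). ZC3HAV1, an RNA-binding antiviral protein, was called lower after HGF (-1.04, SE 0.15, adjusted p = 0.00518). The medians of the list were 0.18, -0.39 and -0.29, beside 0.02, -0.04 and -0.03 over all tested genes.

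The table's own KEGG annotation assigns 60 genes to RIG-I-like receptor signaling, 7 of them among the 10 genes. Of the other 53, 46 were tested, and 6, 1 and 6 were called higher and 0, 6 and 5 lower in the comparisons as ordered above. The share called was 13.04%, 15.2% and 23.9%, the first and last near the 11.4% and 21.5% of all tested genes, and the second beside 8.09%. In Activin+HGF against NC, 6 and 5 became 4 and 9 with library totals, 4 and 10 in limma on log2(FPKM + 0.1), 3 and 4 on log2(FPKM + 1) and 7 and 3 without NC replicate 3. The 6 lower after HGF became 4 without Activin replicate 1, Activin replicate 3 or Activin+HGF replicate 3. Besides ISG15, CXCL10 and TRIM25, the neutrophil chemokine CXCL8 rose from 0.360 to 0.550 CPM in NC to 59.8 to 63.6 CPM in Activin (log2 fold change 7.07, SE 0.37, adjusted p = 5.16e-06) and stood at 12.1 to 27.2 CPM in Activin+HGF. The list medians, 0.12, -0.15 and -0.05, lay near those of all tested genes.

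Among 10 tested Toll-like receptors and adaptors, 1 was higher with activin, 1 higher and 1 lower after HGF, and 1 higher and 1 lower in Activin+HGF against NC. These are 10%, 20% and 20% of the list, beside 11.4%, 8.09% and 21.5% of all tested genes. The first and last are near the share of all tested genes. TLR9, a DNA sensor, was the gene called higher in each, from 0.196 to 0.342 CPM in NC to 2.07 to 3.40 CPM in Activin+HGF (log2 fold change 3.42, SE 0.47, adjusted p = 0.000554). Its call with activin was lost without NC replicate 1, NC replicate 3 or Activin replicate 3 and with limma without a filter (adjusted p = 0.0509 to 0.107), and its call after HGF under 14 of the alternatives (adjusted p = 0.0506 to 0.138). MYD88, the adaptor of most Toll-like receptors other than TLR3, fell from 29.3 to 31.7 CPM in NC to 3.65 to 12.4 CPM in Activin+HGF (-1.80, SE 0.37, adjusted p = 0.00512). The list medians were 0.53, -0.83 and -0.22, beside 0.02, -0.04 and -0.03 over all tested genes. Among the other IRFs, IRF9, IRF5 and IRF2 passed no call in any comparison.

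**Figure D5:**
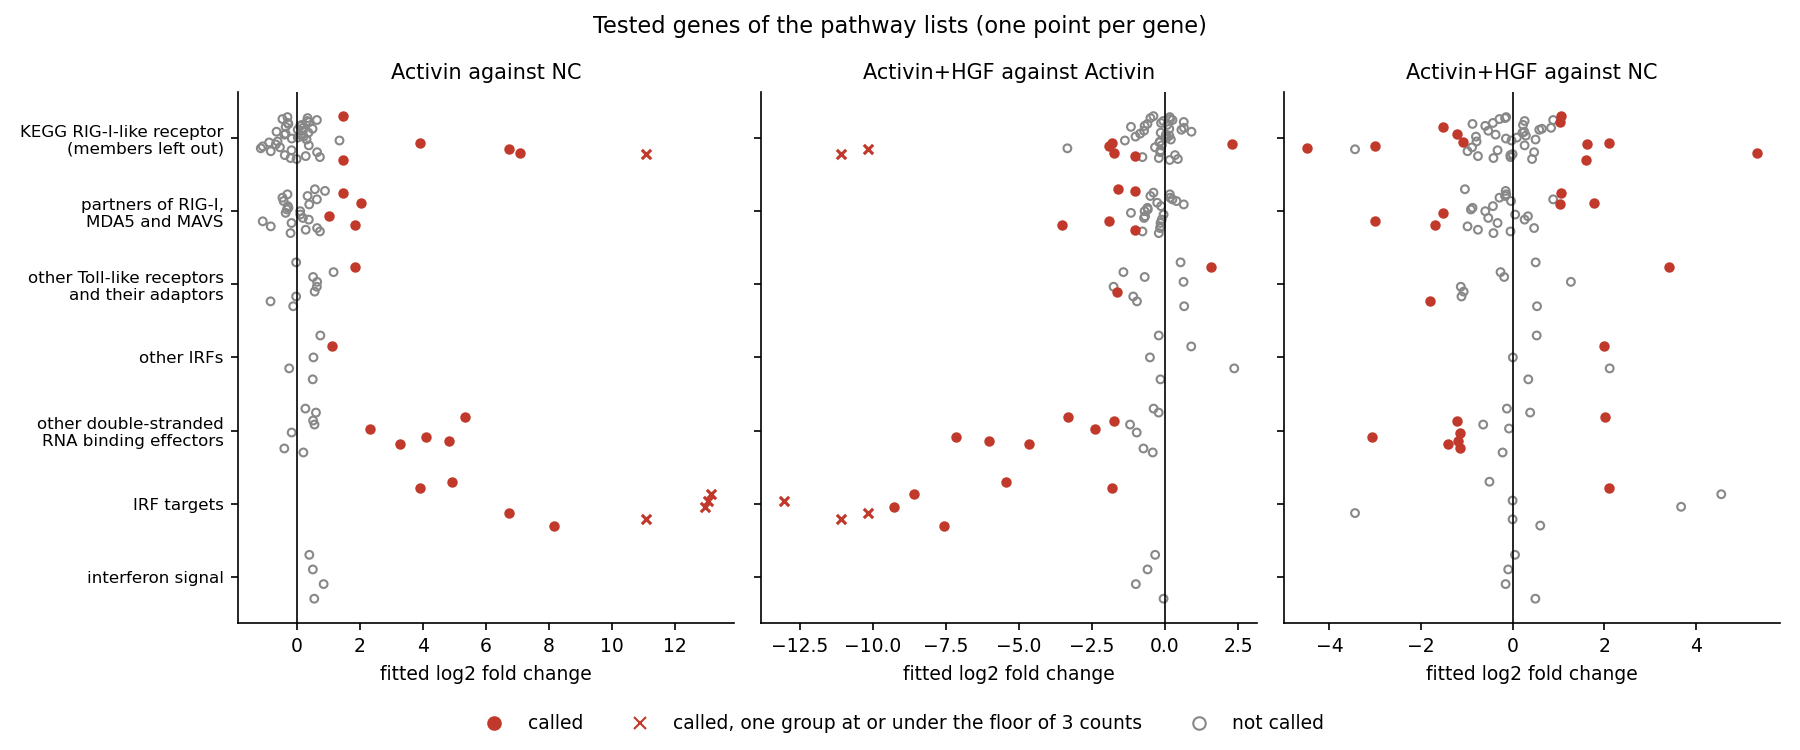
Fitted log2 fold change of every tested gene of the pathway lists in the 3 comparisons (1 point per gene, linear axes in log2 units that differ in range between panels), with filled points for called genes and crosses where one group held at most 3 counts per library, so that the size is no bound. The 8 IRF targets, of which 7 passed the filter only through Activin, lay right of 0 with activin and left of 0 after HGF.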

How the data were processed

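Total RNA of HCT116 cells was depleted of ribosomal RNA and sequenced as paired-end libraries (9 libraries, 3 per group, grouped by treatment tags and titles). The table that the authors deposited holds counts for each gene, though what a single count stands for is uncertain, as given above. It also holds FPKM, which the authors had scaled for library size and gene length. The submitters' processing notes name cutadapt 1.9, HISAT2 2.0.4 and StringTie 1.3.4d. The program that made the counts, its strand setting, the build and the annotation are not given in the sources used here. Of 32930 gene identifiers shared with GENCODE 29, 99.97% lay at overlapping GRCh38 positions. The counts per FPKM of each of the 10 genes but TLR3, which was too low, varied at most 1.04-fold between libraries.

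edgeR 4.0.16 in R 4.3.3 (filterByExpr, TMM scaling, glmQLFit, glmQLFTest) was fitted to the counts of the 9 libraries together, with group means as the only terms, and p-values were adjusted by Benjamini-Hochberg over 20988 genes. CPM are TMM-scaled, standard errors were derived from each fold change with its F value, and lower bounds use 3 counts per library as the floor. Depth was 57453977 to 77016167 counts, but the 3 libraries per group limit the precision. An exact permutation test of 3 libraries against 3 cannot give a two-sided p below 0.1. Other software was Python 3.11.15 with pandas 2.3.3, numpy 2.4.6, scipy 1.17.1 and matplotlib 3.10.9, and limma 3.58.1 and DESeq2 1.42.0 for the alternatives. The fit was tested on simulated counts of 20988 genes for Activin against NC: of 200 genes given a log2 fold change with a size of 2, 57.5% were called with a median estimate of 2.03, and 4.96% of the calls were false.

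The 10 genes and the gene lists were chosen with earlier results of these data known. All 10 were named, and of each list the 4 tested genes with the smallest p in Activin against NC could be named. For each of the 10, the 3 genes with the largest correlation over the 9 libraries were named. Some genes that these rules select are not reported here. The promoters of DDX58, TLR3 and IRF1 and the motifs GAAANGAAA and TTCNNNGAA were added after the values were seen. The promoters are those of RefSeq (GRCh38.p14). The alternatives were other scalings, no filter, a block for the replicate number, a fit to the 2 groups compared alone, the DESeq2 Wald test, limma on log2(FPKM + 0.1) or log2(FPKM + 1) for genes of at least 0.5 FPKM in 3 libraries, other thresholds, and libraries left out in turn. Leaving out Activin replicate 2 and Activin+HGF replicate 1 together was added after the data were seen. No column of the authors' own comparisons was in the table, and 0 per-library columns were left unused. Its Gene Ontology terms were not used.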

Additional observations from a re-analysis of the deposited data

How the results depend on the processing

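Of 564 refits of single genes, 525 kept the direction and the call, 17 lost a call, 4 gained one and 18 changed sign, the last all in changes that were not called. The number of the 10 genes called was 4 to 5 in Activin against NC and 2 to 4 in Activin+HGF against NC under every alternative run. In Activin+HGF against Activin it was 2 rather than 4 when only the 2 groups compared were fitted and when the adjusted p had to be under 0.01. With single libraries left out, the numbers were 4 to 5, 3 to 4 and 3 in these 3 comparisons (3 for Activin+HGF against NC throughout), and with both libraries that stood apart left out they were 5, 3 and 3.

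Sign changes were these. In Activin+HGF against Activin, TICAM1 became -0.10 with library totals and -0.20, -0.18 and -0.20 in the limma fits with 0.1, 1 and 0.1 without filter. IRF7 became -0.19, -0.22, -0.20 and -0.22 in the same fits and -0.01 and -0.067 without Activin replicate 1 or 3, in a leave-one-out range of -0.067 to 0.35. TBK1 became 0.01 without Activin replicate 3 and 0.043 without Activin+HGF replicate 1, in a leave-one-out range of -0.40 to 0.043. In Activin+HGF against NC, IFIH1 became 0.071 without NC replicate 1, 0.02 without Activin+HGF replicate 1 and 0.031 without both libraries that stood apart, in a leave-one-out range of -0.21 to 0.071, and IRF1 became -0.13, -0.054 and -0.13 in the limma fits. The cause was not tested. Library totals shifted the median of all genes from -0.04 to -0.38 in Activin+HGF against Activin and from -0.03 to -0.30 in Activin+HGF against NC, and the share of higher genes among those called from 47.9% to 15.04% and from 52.6% to 33.4%. With activin it went from 59.5% to 68.7%. TBK1 was called lower than NC after HGF with library totals (-1.06, adjusted p = 0.0402) and on log2(FPKM + 0.1) (-1.10, adjusted p = 0.0328), and MAVS on both FPKM scales (-1.30, adjusted p = 0.0276, and -1.19, adjusted p = 0.0219).

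Equal replicate numbers did not pair the libraries: after subtracting group means, libraries with the same number correlated at -0.103 to 0.196. With the replicate block, 5, 4 and 3 of the 10 genes were called, as without it. Depth limits TLR3 most, with 0 to 23 counts per library after HGF.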
